A study of Mus musculus with 20 samples.

Results

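The genes described here are 4 KRAB zinc finger genes, 2610305D13Rik, Gm13152, Rsl1 and Zfp458, out of 25444 annotated loci measured by RNA-seq in mouse liver. 2610305D13Rik and Gm13152, which lie near each other on chromosome 4, were picked because their sex difference varied with strain in these same livers, so their values are given as a description without a p-value. Rsl1 and Zfp458, neighbours on chromosome 13, were picked for a known link to sex-dependent gene expression in liver, and the fit to all genes was used to test them. The series holds 20 livers, 5 each from females (F) and males (M) of the inbred strains C57BL/6N (B6) and C3H/HeN (C3), all taken at 20 weeks of age and sequenced as total RNA depleted of ribosomal RNA in 3 sequencing pools. Each liver came from a separate mouse, and the females and males were kept in separate rooms, so that sex and room cannot be told apart. The libraries held 27370921 to 46835745 counted read pairs, and 3 counts, taken as the floor of a library, corresponded to 0.0641 to 0.11 CPM (read pairs scaled to a library of fixed size).

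KRAB zinc finger proteins bind DNA through an array of C2H2 zinc fingers and, through their KRAB domain, recruit the co-repressor Trim28 (KAP1), which brings in the histone methyltransferase Setdb1, heterochromatin proteins and histone deacetylases. They form a large, fast-evolving family whose genes sit in clusters, and many members hold transposable elements silent. In mouse liver the family is known for the Rsl (regulator of sex-limitation) repressors, among them Rsl1. These repressors keep genes more active in males, such as C4a, Cyp2d9 and several Mup genes, low in females. Zfp458 lies in the same cluster of Rsl candidate genes as Rsl1.

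In the mm9 annotation of the deposited tables, 2610305D13Rik occupied chr4:146986045-147016617 on the minus strand and Gm13152 chr4:146549975-146887529 on the plus strand. The 337555-base span given for Gm13152 overlaps the ends of Gm13139 and Znf41-ps on the same strand, so its counts are the less certain of the pair. Rsl1 lay at chr13:67274118-67284434 on the plus strand and Zfp458 at chr13:67355854-67370004 on the minus strand. RefSeq now lists 2610305D13Rik as Zfp979, with the synonym Ssm1b, and Gm13152 as Zfp982. In the coding transcripts of the mm9 annotation, translated by script, a KRAB box match was found in all 4 members. The number of C2H2 finger matches was 3 in 2610305D13Rik, 7 in Gm13152, 12 in Rsl1 and 20 in Zfp458. The chromosome 4 pair was 60.4% identical in protein sequence and the chromosome 13 pair 57.9%. Reads that mapped to several places were not counted, so stretches shared among such relatives add nothing to these counts.

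The 250 bases before each gene's start are shown for the members because relatives within a cluster share this sequence to different degrees. They come from the RefSeq promoter table, whose build is GRCm38.p6, not the mm9 of the counts. The 2610305D13Rik window is chr4:147642509-147642758 on the minus strand, and the Gm13152 window, the closest of 3 listed for that gene, is chr4:147492167-147492416 on the plus strand. The window of the neighbouring gene Zfp600 (chr4:146156577-146156826, plus strand), the closer of 2 listed for that gene, is also shown. It is close to that of 2610305D13Rik although few reads were counted for Zfp600 in these livers. Capitals in the 2610305D13Rik window mark bases that differ from Gm13152, and capitals in the other windows mark bases that differ from 2610305D13Rik or fall outside the alignment.
2610305D13Rik: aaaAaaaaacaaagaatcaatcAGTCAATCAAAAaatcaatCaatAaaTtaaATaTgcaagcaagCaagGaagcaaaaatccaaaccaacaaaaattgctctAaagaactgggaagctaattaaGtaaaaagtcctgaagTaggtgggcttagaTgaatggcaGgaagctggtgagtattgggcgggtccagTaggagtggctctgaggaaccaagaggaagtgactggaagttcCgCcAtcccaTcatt
Gm13152: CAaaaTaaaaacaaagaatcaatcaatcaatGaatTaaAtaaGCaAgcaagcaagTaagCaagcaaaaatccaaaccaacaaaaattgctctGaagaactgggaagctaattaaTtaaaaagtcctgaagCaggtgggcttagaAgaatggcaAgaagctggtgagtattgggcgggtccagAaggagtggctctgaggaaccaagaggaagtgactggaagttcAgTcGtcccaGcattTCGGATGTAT
Zfp600: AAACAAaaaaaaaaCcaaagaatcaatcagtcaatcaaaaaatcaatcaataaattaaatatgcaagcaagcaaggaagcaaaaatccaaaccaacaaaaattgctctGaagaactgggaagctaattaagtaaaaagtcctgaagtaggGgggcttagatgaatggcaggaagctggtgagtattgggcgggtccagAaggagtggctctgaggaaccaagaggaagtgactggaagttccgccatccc
The Gm13152 window matched that of 2610305D13Rik at 219 of 250 aligned positions (87.6%), and the Zfp600 window at 240 of 244 (98.4%). Another zinc finger gene of the cluster, Rex2, matched at 241 of 244 (98.8%), so such closeness was not particular to the windows shown. Zfp600 nevertheless gave at most 4 counts in any liver, against 82 to 294 counts for 2610305D13Rik in every liver of B6 males, C3 females and C3 males. Reads shared with near-identical relatives were not counted, so how far Zfp600 was expressed is uncertain. The HNF6 and CUX2 core ATCAAT, searched on both strands, occurred 3 times in each of the windows shown above. It was found before 8 of the 10 chromosome 4 zinc finger genes with a window, against 7.72% of all 27025 genes in the table.

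The windows before Rsl1 (chr13:67172932-67173181, plus strand) and Zfp458 (chr13:67268995-67269244, minus strand) are shown with capitals on the longest run of bases they share, ATGTAGTCC, and on matches to the STAT5 core TTCNNNGAA. These matches did not overlap each other.
Rsl1: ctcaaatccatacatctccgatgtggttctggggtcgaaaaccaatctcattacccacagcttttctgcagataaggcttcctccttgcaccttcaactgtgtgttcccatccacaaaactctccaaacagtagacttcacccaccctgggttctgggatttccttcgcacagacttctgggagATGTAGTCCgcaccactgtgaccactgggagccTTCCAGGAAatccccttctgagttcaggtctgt
Zfp458: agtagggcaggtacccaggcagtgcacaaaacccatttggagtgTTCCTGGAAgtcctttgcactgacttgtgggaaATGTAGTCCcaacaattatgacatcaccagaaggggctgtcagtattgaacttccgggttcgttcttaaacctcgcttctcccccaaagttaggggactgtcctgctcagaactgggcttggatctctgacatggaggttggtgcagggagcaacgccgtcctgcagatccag
The shared run was found, on either strand, before 10 of the 22 chromosome 13 zinc finger genes with a window, against 0.474% of all genes. These 10 include Rsl1 and Zfp458, which hold the run because it was taken from them. It was found before 0 of 10 chromosome 4 zinc finger genes. The STAT5 core preceded 15 of the 22 chromosome 13 genes (68.2%), including Rsl1 and Zfp458 with 1 match each, against 8.13% of all genes. No match to it was present in the windows of 2610305D13Rik or Gm13152. Genes of a cluster share descent, so these shares describe related sequences and are not independent occurrences, and a match is not a binding site.

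2610305D13Rik was nearly silent in B6 females and was expressed in the other 3 groups. In B6 females its counts were 7, 4, 4, 3 and 9, a mean of 0.136 ± 0.0671 CPM (SD, n = 5). In B6 males they were 84, 166, 140, 92 and 294, or 4.50 ± 2.75 CPM. In C3 females they were 117, 146, 169, 123 and 148, or 3.81 ± 0.432 CPM, and in C3 males 82, 131, 107, 88 and 86, or 3.06 ± 0.609 CPM. The B6 females lay below every other liver, whereas the other 3 groups overlapped. Within B6 males the highest values, 5.08 and 9.02 CPM, came from the 2 livers of pool 1, and the other 3 livers lay between 2.27 and 3.43 CPM.

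The fitted level of 2610305D13Rik in B6 was 30.9-fold higher in males than in females (log2 fold change, F versus M, -4.95 ± 0.32, SE). In C3 the F versus M estimate was 0.40 ± 0.23, with the groups overlapping. Between strains, C3 females stood 28.2-fold above B6 females (log2 4.82 ± 0.33), while the estimate in males was -0.54 ± 0.23. The sex difference in C3 minus that in B6 came to 5.35 ± 0.41 on the log2 scale, which is the pattern the gene was chosen by. Within pools 1, 2 and 3 the difference of mean log2 CPM between B6 females and males was -5.08, -3.86 and -4.14.

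Counts of Gm13152, from reads aligned to a C57BL/6 genome, were highest in B6 males, intermediate in B6 females and near the floor of detection in C3 of either sex. The counts were 166, 162, 268, 240 and 222 in B6 males, or 5.92 ± 0.79 CPM, and 67, 61, 29, 44 and 47 in B6 females, or 1.20 ± 0.133 CPM (SD, n = 5). C3 females had 5, 6, 6, 4 and 6 counts (0.147 ± 0.025 CPM) and C3 males 1, 2, 5, 7 and 3 (0.104 ± 0.0557 CPM). The B6 sexes did not overlap, and every C3 liver lay below every B6 liver. C3 females and males overlapped at 1 to 7 counts.

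In B6, Gm13152 was 4.93-fold higher in males (log2, F versus M, -2.30 ± 0.13, SE). The C3 estimate was 0.35 ± 0.32, from 1 to 7 counts per liver. C3 lay below B6 by 8.16-fold in females (log2 -3.03 ± 0.20) and by 51.3-fold in males (log2 -5.68 ± 0.19). The sex difference in C3 minus that in B6 was 2.65 ± 0.35, again the quantity behind its choice. The within-pool values of the B6 sex difference were -2.18, -2.38 and -2.25. Thus the pair had a higher male level in B6 in common, but the strain difference had opposite signs in females, where 2610305D13Rik was higher in C3 and Gm13152 lower.

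**Figure D1:**
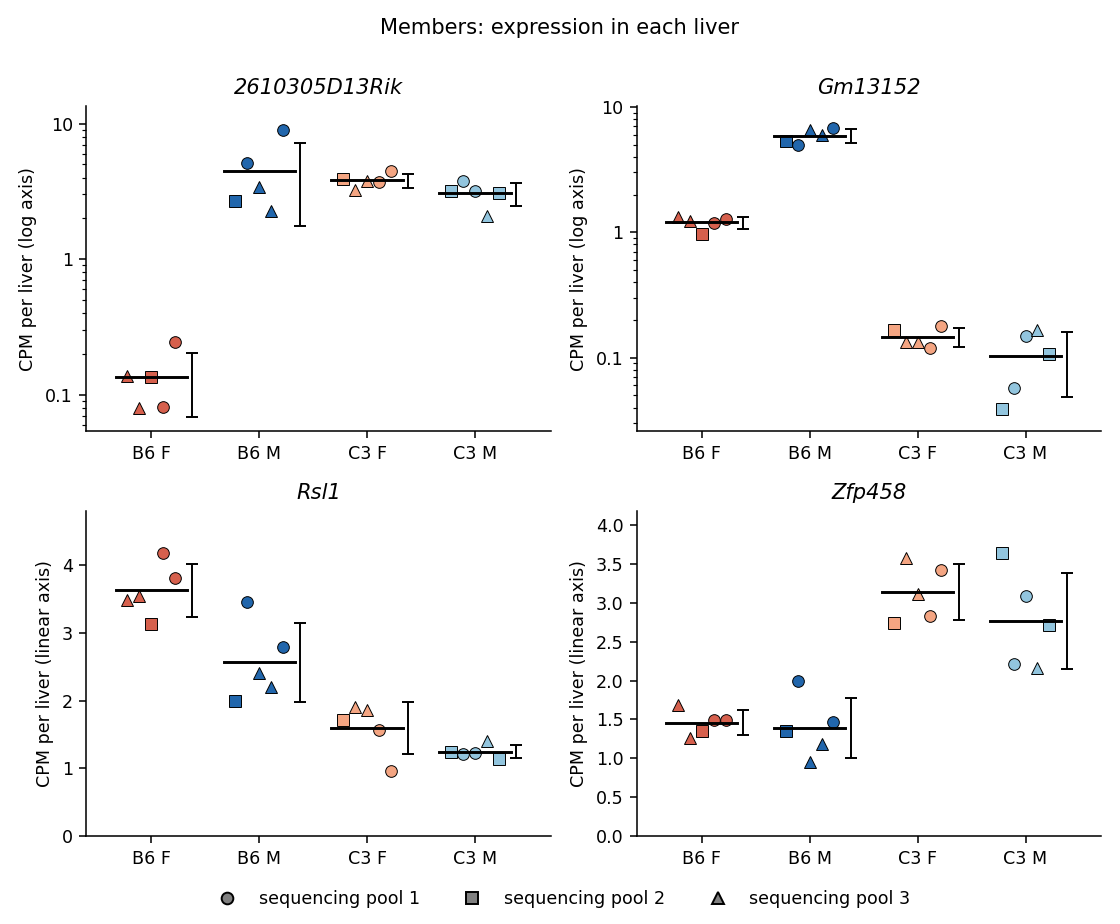
CPM of each of the 4 genes (vertical axes, log for the upper genes and linear for the lower) in every liver of the 4 groups (horizontal axis). Points are livers, their shape gives the sequencing pool, horizontal lines are group means and bars beside them 1 SD over 5 livers; the B6 females stand apart for 2610305D13Rik, the C3 livers for Gm13152, and the strains separate for Rsl1 and Zfp458.

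Rsl1 was higher in B6 than in C3 in both sexes. Its counts in B6 females were 177, 176, 93, 154 and 140 (3.63 ± 0.389 CPM, SD, n = 5) and in B6 males 62, 113, 98, 89 and 91 (2.57 ± 0.58 CPM). In C3 females they were 52, 86, 83, 52 and 32 (1.60 ± 0.382 CPM) and in C3 males 32, 42, 41, 59 and 32 (1.24 ± 0.0958 CPM). On the CPM scale every B6 liver lay above every C3 liver, and the sexes overlapped within each strain.

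A gene was called when its Benjamini-Hochberg adjusted p in edgeR's quasi-likelihood test was below 0.001 and its log2 fold change was beyond 0.5 in either direction. Rsl1 fell in C3 relative to B6 in females (log2 -1.16 ± 0.16, SE, edgeR adjusted p = 1.63e-05) and in males (log2 -1.0 ± 0.17, edgeR adjusted p = 0.000186), a level 2.24-fold and 2.0-fold lower. The female-to-male estimates were 0.50 ± 0.15 in B6 (edgeR adjusted p = 0.0174) and 0.34 ± 0.18 in C3 (edgeR adjusted p = 0.137), neither of which was called. The 95% interval of the C3 estimate ran from -0.01 to 0.69. The strain difference in females was -1.66 within pool 1 and -0.85 and -0.88 within pools 2 and 3, and in males -1.31, -0.72 and -0.69, so it kept its sign in each pool but was larger in pool 1.

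Zfp458 differed between the strains in the other direction. B6 females had 86, 63, 40, 55 and 55 counts (1.46 ± 0.163 CPM, SD, n = 5) and B6 males 42, 65, 39, 48 and 48 (1.39 ± 0.387 CPM). C3 females had 83, 161, 139, 94 and 114 counts (3.13 ± 0.361 CPM) and C3 males 94, 77, 103, 91 and 76 (2.76 ± 0.618 CPM). Every C3 liver lay above every B6 liver on the CPM scale.

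In C3 relative to B6, Zfp458 rose by a log2 fold change of 1.10 ± 0.17 in females (SE, edgeR adjusted p = 5.52e-05) and 0.97 ± 0.18 in males (edgeR adjusted p = 0.00035), or 2.15-fold and 1.96-fold. The sexes overlapped in either strain, with F versus M estimates of 0.10 ± 0.18 in B6 (edgeR adjusted p = 0.711) and 0.23 ± 0.17 in C3 (edgeR adjusted p = 0.287). The call in males was lost when only the compared groups were fitted (log2 0.88, edgeR adjusted p = 0.0039). It was also lost without B6 male 1 (edgeR adjusted p = 0.00206), B6 male 3 (0.00119), B6 male 4 (0.00124) or C3 male 3 (0.00168), with log2 estimates of 0.88 to 0.94.

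Of Rsl1 and Zfp458, 2 of 2 were called between strains in females, where 9.4% of the 13704 genes tested were called, and 2 of 2 in males, where the share of all genes was 9.64%. Neither was called by sex, against 6.34% of all genes for F versus M in B6 and 6.9% in C3. Neither passed for the difference of the sex effects between strains, which was -0.16 ± 0.24 for Rsl1 (edgeR adjusted p = 0.803) and 0.14 ± 0.25 for Zfp458 (edgeR adjusted p = 0.849), and 0.401% of all genes passed there. In the comparisons behind their choice, 2610305D13Rik and Gm13152 had the values already given. The strain comparisons share the groups of the sex comparisons, so the columns of estimates are not independent of each other.

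**Figure D2:**
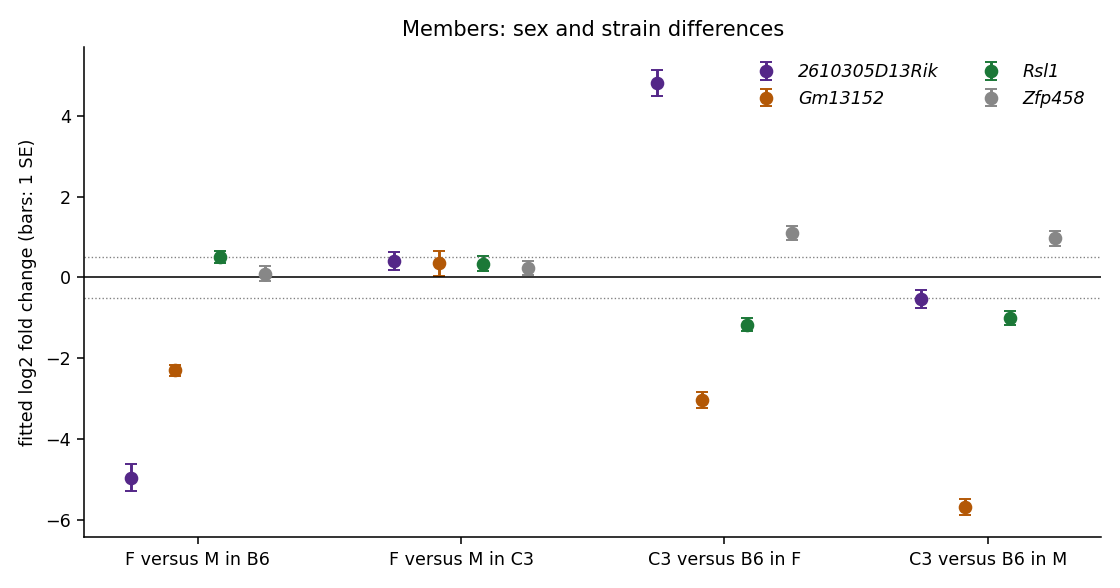
Fitted log2 fold change of each member (vertical axis) in the 4 pairwise comparisons (horizontal axis), with bars of 1 SE from the fit to 20 livers and dotted lines at 0.5 in either direction. The chromosome 4 pair reaches -4.95 and -5.68, while Rsl1 and Zfp458 stay between -1.16 and 1.10 with opposite signs between strains.

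On the TPM scale, which corrects for transcript length and so allows levels to be compared between genes, the member with the highest mean changed from group to group. In B6 females it was Rsl1, at 3.93 ± 0.407 TPM (SD, n = 5), ahead of Gm13152 at 2.14, Zfp458 at 0.927 and 2610305D13Rik at 0.118. In B6 males it was Gm13152, at 9.73 ± 1.28 TPM. In C3 it was 2610305D13Rik, at 3.14 ± 0.354 TPM in females and 2.33 ± 0.465 TPM in males, where Gm13152 was at 0.249 and 0.163 TPM. By the reads that were counted, all 4 members were low-abundance transcripts, and none exceeded 11 TPM in any liver.

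Around the chromosome 4 pair, 40 further loci lay within 1 Mb, of which 11 coded for proteins with 3 or more zinc finger matches. Only 4 of these 11 zinc finger genes had enough counts to be tested, namely Gm13251, Gm13139, Gm13157 and Zfp933. Gm13251 had a sex difference in B6 in the same direction as the chromosome 4 members. It had 31, 31, 16, 38 and 42 counts in B6 females (0.789 ± 0.277 CPM, SD, n = 5) and 182, 311, 211, 158 and 367 in B6 males (7.14 ± 3.11 CPM). In C3 its counts were 91, 151, 138, 80 and 88 in females (2.90 ± 0.375 CPM) and 168, 312, 185, 217 and 112 in males (6.04 ± 1.88 CPM). Females lay below males without overlap in each strain.

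Gm13251 gave an F versus M log2 value of -3.14 ± 0.25 in B6 (SE, edgeR adjusted p = 2.95e-08) and -0.98 ± 0.22 in C3 (edgeR adjusted p = 0.00247, not called). The difference of these values, 2.15 ± 0.33, fell just short of a call (edgeR adjusted p = 0.00101). Gm13251 also rose in C3 females over B6 females (log2 1.95 ± 0.26, edgeR adjusted p = 1.01e-05), with an estimate of -0.20 ± 0.21 in males. As in 2610305D13Rik, its 2 highest B6 male values, 9.52 and 11.3 CPM, belonged to pool 1.

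Gm13139, whose translated sequence was 99.0% identical to that of Gm13251, so that reads in shared stretches could not be assigned to either, was lower overall. Its means in B6 were 0.131 ± 0.0489 CPM for females and 0.984 ± 0.574 CPM for males, and in C3 0.403 ± 0.18 and 0.904 ± 0.301 CPM (SD, n = 5). For F versus M it gave log2 -2.70 ± 0.37 in B6 (edgeR adjusted p = 2.0e-05) and -1.06 ± 0.32 in C3 (edgeR adjusted p = 0.014, not called). Gm13157 instead had a strain difference alone among its calls. It was at 3.81 ± 0.585 and 2.67 ± 0.344 CPM in B6 females and males and at 0.646 ± 0.14 and 0.466 ± 0.145 CPM in C3, a log2 fold change of -2.56 ± 0.17 in females and -2.55 ± 0.19 in males (edgeR adjusted p = 1.62e-09 and 6.60e-09). Zfp933 was called in C3 males against B6 males only, by 0.52 ± 0.10 on the log2 scale (edgeR adjusted p = 0.000282), and its estimate in females was 0.37 ± 0.09.

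**Figure D3:**
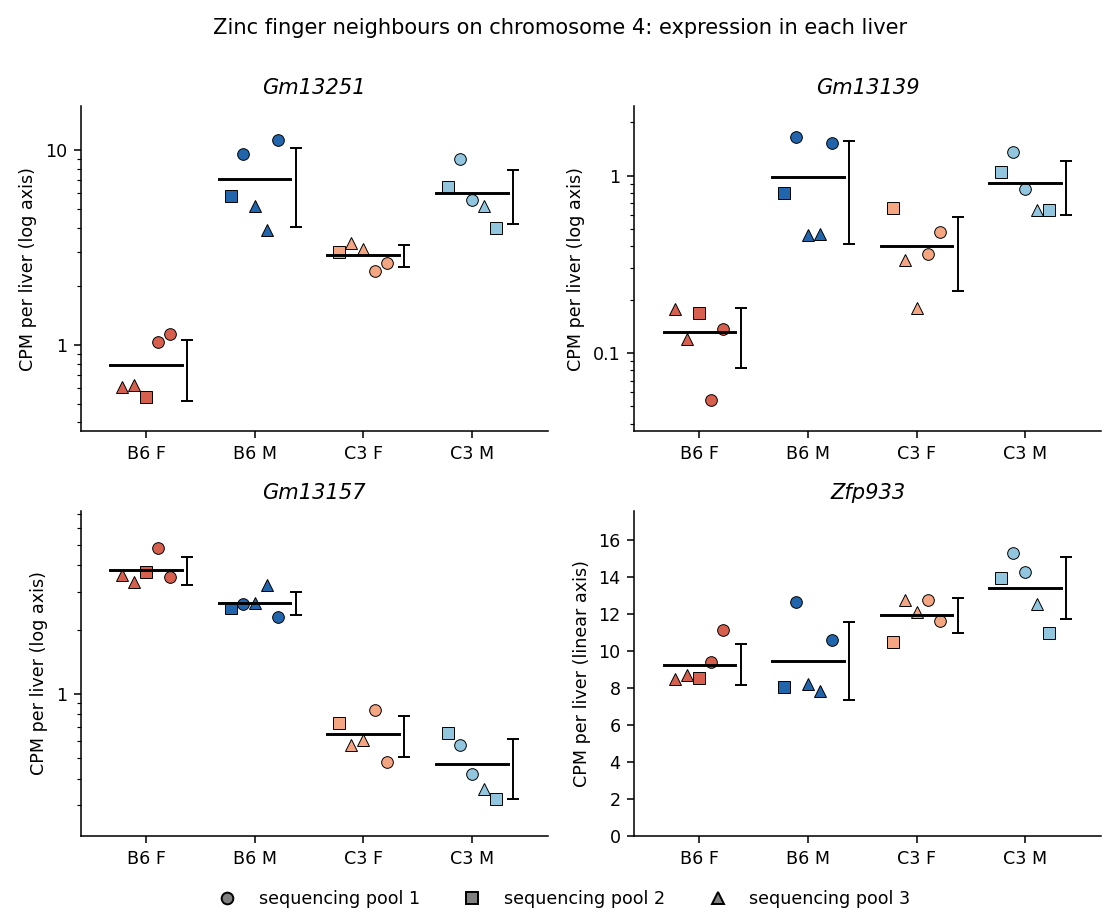
CPM of the 4 tested zinc finger genes near the chromosome 4 pair (vertical axes, linear for Zfp933 and log for the others) in every liver of the 4 groups (horizontal axis). Points are livers, shaped by sequencing pool, with group means as lines and 1 SD over 5 livers as bars; Gm13251 and Gm13139 are lowest in B6 females and Gm13157 is low in C3.

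Across the whole chromosome 4 neighbourhood, 24 of the 40 loci could be tested. For F versus M in B6, 2 were called (8.33%, beside 6.34% of all genes), both of them the zinc finger genes Gm13251 and Gm13139. For F versus M in C3 the only call was Miip (log2 0.86 ± 0.11, edgeR adjusted p = 1.39e-05), or 4.17% of the loci tested beside 6.9% of all genes. Between strains 9 were called in females and 9 in males (37.5% of those tested in each case, beside 9.4% and 9.64% of all genes), and 6 were called in the same direction in both sexes. Fbxo44, a subunit of an F-box ubiquitin ligase, had 87 to 149 counts in B6 livers and 0 to 3 in C3 livers. Angptl7 rose in each sex (1.39 and 1.65), Miip fell in each (-0.85 and -1.44), and the pseudogene Rps19-ps3 rose in males (1.72). The median log2 fold change of the tested loci was 0.11 in females and -0.03 in males, beside 0.02 and 0.01 over all genes. The number called in males dropped to 5 when the sequencing pool was left out of the fit, for which the share of all genes called was not computed.

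Around Rsl1 and Zfp458, 35 further loci lay within 1 Mb, 22 of them zinc finger genes by the matches in translated transcripts. Of the 35 loci, 31 could be tested, including 20 of the zinc finger genes. A further 6 loci had no matched transcript and were not classed, although some may be zinc finger genes. Between strains 9 were called in females (29.0%, beside 9.4% of all genes) and 8 in males (25.8%, beside 9.64%), with 6 called in both sexes in the same direction. F630042J09Rik was nearly absent from B6, with 0 to 9 counts per liver, and had 15 to 78 in C3, a fitted log2 fold change of 4.29 ± 0.38 in females and 5.30 ± 0.50 in males (edgeR adjusted p = 5.35e-08 and 1.33e-07). Zfp457 rose in C3 by 2.82 ± 0.40 and 2.21 ± 0.39 (edgeR adjusted p = 2.1e-05 and 0.000212). Zfp456 fell, like Rsl1, by 1.25 in females and by 1.05 in males on the log2 scale. Zfp708 fell by 0.91 in each sex, Zfp273 fell in females (-0.87), Gm10037 fell in females (-2.84) and Gm10767 in males (-1.44). Of the 6 zinc finger genes called in each sex, 2 rose and 4 fell in females, and 3 rose and 3 fell in males. Outside this tally, 2 loci with no matched transcript were called in females and 1 in males. The male count dropped from 8 to 5 without the pool term, again with no share of all genes computed for that fit.

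By sex, 1 of the 31 loci near the chromosome 13 pair was called in B6 (3.23%, beside 6.34% of all genes) and 0 in C3 (beside 6.9%). Zfp429 was called for F versus M in B6 (log2 1.05 ± 0.21, edgeR adjusted p = 0.00099), with 71 to 123 counts in females and 30 to 45 in males, and its C3 estimate was 0.73 ± 0.20 (edgeR adjusted p = 0.00849). The call lay at the threshold, and no locus of the neighbourhood was called in 15 of the 20 fits that each left out 1 liver. The median F versus M log2 fold change of the 20 zinc finger genes was 0.15 in B6 and 0.08 in C3, beside 0.00 and 0.01 over all genes. In neither neighbourhood was a locus called for the difference of the sex effects between strains (0 of 24 and 0 of 31, in edgeR's test, beside 0.401% of all genes). At so small a share, lists of this size would hold few calls or none, so these counts do not set them apart.

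**Figure D4:**
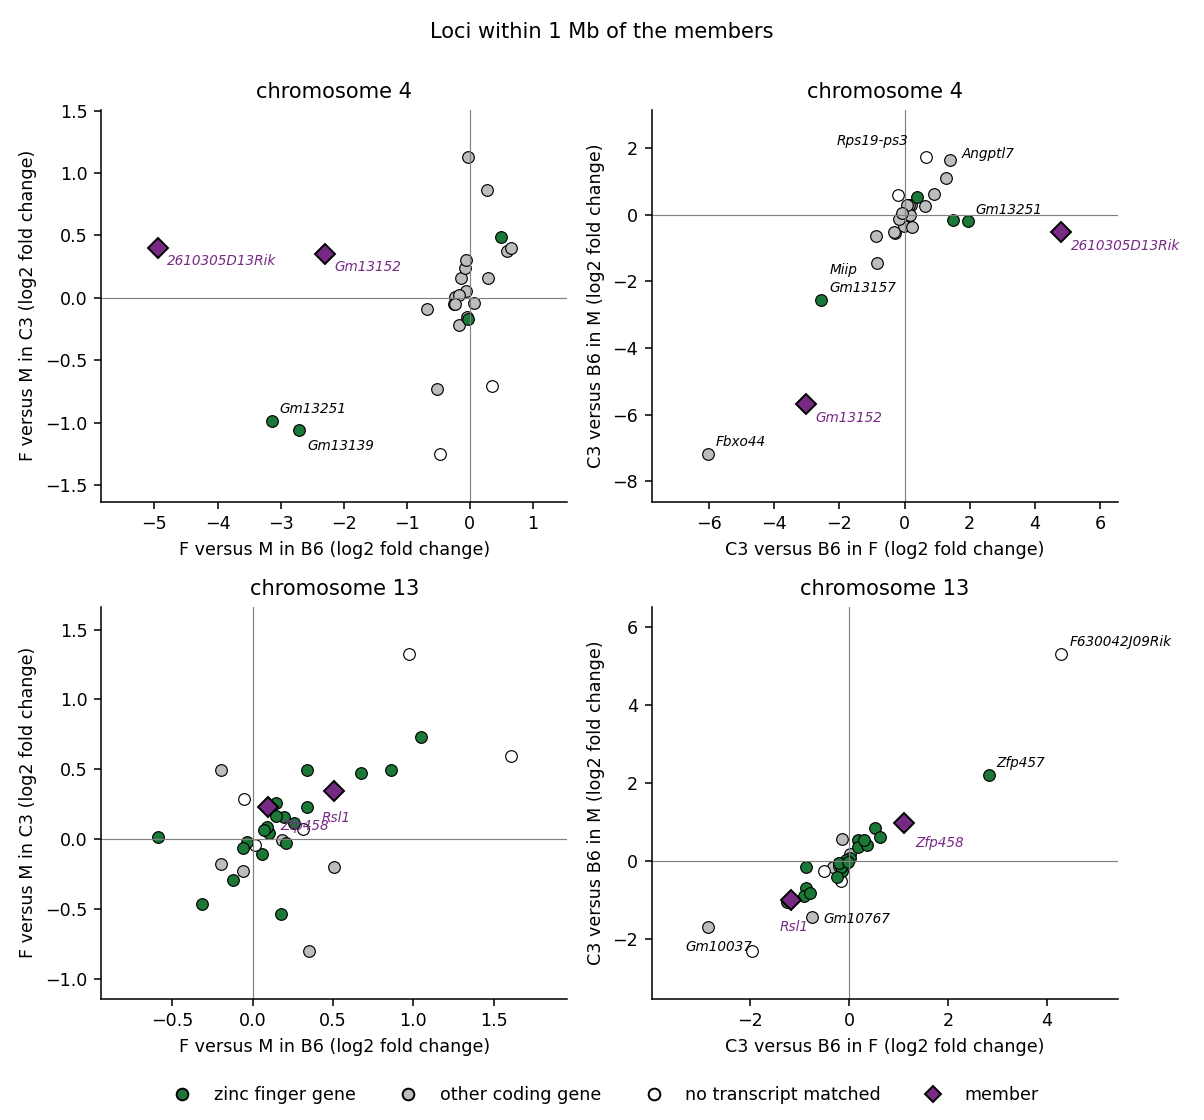
Log2 fold changes of the tested loci within 1 Mb of the members, F versus M in B6 (horizontal) against C3 (vertical) at the left and C3 versus B6 in F (horizontal) against M (vertical) at the right, for chromosome 4 above and chromosome 13 below. Green points are zinc finger genes, grey points other coding genes, white points loci with no matched transcript and purple diamonds the members; names mark called loci with a log2 fold change beyond 1.3, such as Gm13251 at -3.14 in B6.

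The 14 genes of the KRAB co-repressor machinery that were examined were all expressed. None was called by sex, where 6.34% and 6.9% of all genes were called in B6 and C3. Trim28, the direct partner of the KRAB domain, was at 49.2 ± 5.46 CPM in females and 49.5 ± 6.26 CPM in males of B6, and at 57.0 ± 9.47 and 57.4 ± 5.11 CPM in those of C3 (SD, n = 5). Its F versus M estimates were -0.01 ± 0.07 in B6 and -0.06 ± 0.07 in C3. Between strains, 1 of the 14 was called in females (7.14%, beside 9.4% of all genes) and 2 in males (14.3%, beside 9.64%). Counts this small do not set the list apart. Chd3, a chromatin remodeller of the NuRD complex, fell in C3 by 0.74 in females and by 1.13 in males on the log2 scale (edgeR adjusted p = 2.64e-07 and 8.68e-10). Dnmt3a, a de novo DNA methyltransferase, rose in C3 males (0.52 ± 0.11, edgeR adjusted p = 0.000763), with an estimate of 0.39 ± 0.10 in females that was not called.

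Of the genes known to answer to Rsl repressors, C4a and Cyp2d9 were higher in males of either strain. C4a, the sex-limited complement protein, had a mean of 3.63 ± 0.532 CPM in B6 females and 41.0 ± 14.1 in B6 males, and 6.97 ± 1.23 and 73.6 ± 17.7 CPM in C3 females and males (SD, n = 5). For F versus M it gave log2 -3.50 ± 0.24 in B6 and -3.39 ± 0.23 in C3 (edgeR adjusted p = 3.39e-09 and 3.94e-09). The cytochrome P450 gene Cyp2d9 was at 60.6 ± 20.8 and 1471 ± 224 CPM in B6 females and males and at 78.1 ± 15.3 and 1641 ± 167 CPM in C3, a difference of -4.62 ± 0.22 and -4.36 ± 0.22 (edgeR adjusted p = 2.07e-11 and 4.08e-11). Neither gene was called between strains. The C3 versus B6 estimates of C4a were 0.93 ± 0.24 in females and 0.82 ± 0.21 in males (edgeR adjusted p = 0.00546 and 0.00553), and those of Cyp2d9 0.39 ± 0.19 and 0.12 ± 0.19 (edgeR adjusted p = 0.137 and 0.655). Of 20 Mup loci tested, 15 were called for F versus M in B6 (75%, beside 6.34% of all genes) and 8 in C3 (40%, beside 6.9%). Mup2 stands at several loci, so the loci are not all separate genes. Every call had the higher level in males, and the largest values were -9.15 for Mup14 in B6 and -8.23 for Mup21 in C3. Over all comparisons the largest fitted Mup changes were between the strains in males, at -10.85 for Mup11 and -10.05 for Mup14. Mup genes are near-identical copies whose shared reads were not counted, so their separate values are uncertain.

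Genes whose log2 CPM followed a member most closely over the 20 livers were ranked by Pearson's r, as a description in which group means carry much of the agreement. For 2610305D13Rik these were Fam131c (r = 0.91), Tpmt (0.90), Gm13251 (0.90), Mup9 (0.89) and Abca1 (0.87). Gm13152 was followed by Mup11 (0.98), Unc13b (0.97), Spryd7, Atg7 and Tmem260 (0.96 each). The 5 nearest to Rsl1 were Hmgn2 (0.94), Arntl2, Eml6, Pydc4 (0.92 each) and 1700030C10Rik (0.91), and those nearest to Zfp458 were Amotl1, Cap2 (0.93 each), Dab1 (0.92), Hist1h2al and Ankrd55 (0.91 each). Among the members, Gm13152 and Zfp458 gave r = -0.85 over the 20 livers, and after group and pool were removed no pair was outside -0.24 to 0.28.

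The labels of sex held in every library, with Xist at 12349 to 25729 counts in females and at most 11 in males, and with Y-linked Ddx3y at 2340 to 4320 in males and at most 1 in females. All 6 hepatocyte markers were present in each group. Their summed level was higher in C3 than in B6 without overlap within either sex, at 136929 to 168740 CPM against 96638 to 129037 CPM in females and 109970 to 137543 CPM against 78000 to 102832 CPM in males. The 5 Kupffer cell markers summed to 323 to 436 CPM in females and 205 to 324 CPM in males of B6, and to 227 to 345 and 154 to 231 CPM in those of C3, and the 4 stellate cell markers were also highest in B6 females (446 to 558 CPM). The 4 cholangiocyte markers went the other way, with a median sum of 3.92 CPM in B6 females against 5.14 to 6.35 CPM in the other groups, although the ranges overlapped. The 4 sinusoidal endothelium markers summed to 272 to 337 CPM in B6 females, overlapping C3 females at 243 to 317 CPM. The 4 T and B cell markers stayed below 2.5 CPM in each liver. In whole liver, fewer cells of a type and less RNA per cell cannot be told apart, and the part of cell makeup in the levels of the 4 members was not tested.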

How the data were processed

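Total liver RNA (left lateral lobe, ribosomal RNA depleted, strand-specific, paired reads) was measured in 20 mice. The authors trimmed reads with cutadapt 1.9.1, aligned them with STAR 2.5.1b to mm9, a genome of a C57BL/6 strain, and counted RefSeq genes with featureCounts (Subread 1.5.0-p1) by strand, leaving out multimapping pairs and those shared by overlapping genes. The deposited tables hold raw counts and the authors' TPM per locus, and the header names of their first columns, symbol and identifier, are exchanged. All 20 samples were grouped by sex and strain from the labels. Depth was 27370921 to 46835745 counts per library, and floors cover counting error only, whereas the intervals come from the fit and include the spread among mice.

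Counts were fitted with edgeR 4.0.16 (R 4.3.3; TMM scaling, filterByExpr, quasi-likelihood test) on group and sequencing pool, with Benjamini-Hochberg adjustment over 13704 genes tested. CPM uses TMM-scaled totals. The procedure was tested on simulated data. Alternatives were DESeq2 1.42.0, limma 3.58.1 on log2(TPM + 1) and log2(TPM + 0.1), other scaling factors, no filter, no pool, a replicate block, the compared groups alone, and leaving out each liver. P-values measure the spread among separate mice.

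The members and all gene lists were chosen with earlier results of these data known. Text names the 4 members, up to 8 called loci per neighbourhood (those with the largest change) together with the tested zinc finger genes near the chromosome 4 pair, the called co-repressor genes and Trim28, C4a, Cyp2d9 and the Mup genes with the largest changes overall and by sex, and the 5 genes most alike to each member. A called locus of the chromosome 4 neighbourhood is not reported here. Loci were called neighbours when within 1 Mb in mm9. Zinc fingers were matched in translated coding transcripts of the mm9 annotation, for 67 of 79 loci, with matching windows in RefSeq's promoter table (GRCm38.p6) for 60.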

Additional observations from a re-analysis of the deposited data

Results flagged for a closer look

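The sex difference of 2610305D13Rik differed between the strains, with C3 minus B6 at 5.35 on the log2 scale, since the F versus M value was -4.95 in B6 and 0.40 in C3. That of Gm13152 differed by 2.65, with -2.30 in B6 and 0.35 in C3, where 1 to 7 counts per liver were measured. Both genes were chosen for this difference between strains, so the values are a description and were not tested. Among the 16 sets of 5 livers formed by the 4 genes and 4 groups, no liver stood apart by Dixon's criterion at the 95% level (0.71 for 5 samples).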

How the results depend on the processing

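Rsl1 kept its direction and its calls in every alternative run. Of 288 alternative values for Rsl1 and Zfp458, 3 changed sign, all for Zfp458 and all close to 0, namely F versus M in B6 at -0.0025 without B6 female 1 and -0.0095 without B6 male 3 (range over left-out livers -0.01 to 0.24) and the difference of sex effects at -0.013 without B6 male 2 (range -0.01 to 0.25). Zfp458 in C3 versus B6 males was no longer called with limma on log2(TPM + 1), at 0.48, or with the groups compared alone, at 0.88, and ranged from 0.86 to 1.11 over left-out livers. The chromosome 4 pair kept every direction, and limma gave smaller values because the pseudocount weighs on low levels. With a pseudocount of 1 and then 0.1, 2610305D13Rik was at -1.92 and -3.94 for F versus M in B6, 1.88 and 3.92 for C3 versus B6 females, and 2.27 and 4.41 for the difference of sex effects. Gm13152 was at -1.33 and -2.68 for C3 versus B6 females, -3.17 and -5.22 for males, and, with a pseudocount of 1, -1.77 for F versus M in B6 and 1.84 for the difference of sex effects.

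Called neighbours on chromosome 4 numbered 4 with DESeq2 for F versus M in B6 (2 to 4 over left-out livers), 2 with DESeq2 for F versus M in C3, 5 without pool for C3 versus B6 males, and 1 with DESeq2 or with no filter for the difference of sex effects (0 to 1 over left-out livers). On chromosome 13 they numbered 2 with DESeq2, either limma fit or upper-quartile factors and 0 with DESeq2 size factors or without pool for F versus M in B6 (0 to 1 over left-out livers). They numbered 1 with limma at a pseudocount of 0.1 or upper-quartile factors for F versus M in C3 (0 to 1), and 5 without pool for C3 versus B6 males. The share of all genes called was not computed for these alternative fits. These counts may therefore follow how many genes a fit called in all, and the cause of the changes was not tested. Same-numbered livers shared only a number (mean correlation of their deviations -0.24 to 0.22), and with the replicate block no call of Rsl1 or Zfp458 changed (Rsl1 in C3 versus B6 females -1.17) and the neighbour counts moved by at most 1. Depth limits small differences of Gm13152 in C3 and of 2610305D13Rik in B6 females, at 1 to 9 counts per liver.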
